A study of Mus musculus with 5 samples.

Results

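Secreted signalling genes of the mouse kidney are described here: Sfrp1, Sostdc1, Wnt5a, Wnt9b, Fst, Btc, Mdk and Nbl1. They were chosen by symbol and are 8 of the 16934 genes listed in the tables. Each was read in every barcode with at least 200 detected genes, 12121 cells in all. WNT and BMP ligands are secreted proteins that bind receptors on neighbouring cells, and the kidney uses both families to form and maintain its tubules. Secreted antagonists hold these ligands, or the receptors, away from each other, so that the signal a cell receives depends on both. Sfrp1 is a secreted frizzled-related protein that binds WNT ligands, Sostdc1 is an antagonist of BMP ligands that also acts on WNT co-receptors, Nbl1 (also called DAN) is a BMP antagonist and Fst (follistatin) binds activin. Wnt9b and Wnt5a are WNT ligands, and Wnt9b is known as the ureteric bud signal that starts nephron formation in the mouse embryo. Btc (betacellulin) is a ligand of the EGF receptor family, and Mdk (midkine) is a heparin-binding growth factor.

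Cells came from wild type mice of the strain spelled C56BL/6N in the labels, with no treatment given. Inner medulla, outer medulla and cortex were microdissected and had 1 Drop-seq library each, and whole kidney had 2, called whole kidney 2 and whole kidney 1 below. Drop-seq catches single cells in droplets and counts messenger RNA molecules by unique molecular identifiers (UMIs). The labels do not say which animals, or how many, gave each library, nor their age or sex, so no test between regions was made and intervals below cover counting error only.

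The 5 libraries held 898 inner medulla, 2428 outer medulla, 3072 cortex, 3305 whole kidney 2 and 2418 whole kidney 1 cells, with medians of 440 to 517 UMIs per cell. Cells were grouped into 16 clusters drawn without the 8 genes, and 15 of these were given a class name from marker genes, written with "-like". Principal cell-like cells were 53.2% of inner medulla cells, against 7.12% in outer medulla and 2.08% in cortex, while proximal tubule-like cells were 10.1%, 62.4% and 72.9% of cells in the same order. Thin limb-like cells were 133 in inner medulla, 27 in outer medulla and 0 in cortex. Between them the libraries shared 5 cell barcodes.

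The sequences upstream of 3 genes are shown, the only ones of the 8 for which a sequence was available. In principal cell-like cells Wnt9b and Nbl1 levels were higher and Btc levels lower in inner medulla. Sostdc1 also differed there, but no sequence of it was available. Of the 8 genes, 3 matched the RefSeq promoter table, which is of build GRCm38.p6, whereas the submitters' processing notes name mm9. Each line gives the 250 bases before the annotated start, 5′ to 3′ on the minus strand, with capitals for GGGCGG (the GC box) or its reverse complement CCGCCC. The Wnt9b window is at chr11:103749822-103750071, the Nbl1 window at chr4:139092971-139093220 and the Btc window at chr5:91402995-91403244.
Wnt9b: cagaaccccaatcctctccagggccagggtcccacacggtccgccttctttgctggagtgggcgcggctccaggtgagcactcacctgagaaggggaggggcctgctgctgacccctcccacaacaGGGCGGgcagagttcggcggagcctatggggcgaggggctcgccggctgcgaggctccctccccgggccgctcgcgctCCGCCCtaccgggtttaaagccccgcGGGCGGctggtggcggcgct
Nbl1: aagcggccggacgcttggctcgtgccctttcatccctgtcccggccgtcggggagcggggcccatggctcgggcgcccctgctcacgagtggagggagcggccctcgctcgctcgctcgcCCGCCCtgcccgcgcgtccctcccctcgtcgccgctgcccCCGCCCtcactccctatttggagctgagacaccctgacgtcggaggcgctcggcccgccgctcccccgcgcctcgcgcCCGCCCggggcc
Btc: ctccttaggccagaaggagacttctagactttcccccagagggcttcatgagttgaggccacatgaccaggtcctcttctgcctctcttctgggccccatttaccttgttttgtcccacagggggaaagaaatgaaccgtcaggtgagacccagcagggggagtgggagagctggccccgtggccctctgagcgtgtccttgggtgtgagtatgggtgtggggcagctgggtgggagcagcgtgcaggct
The Wnt9b and Nbl1 windows held 3 GC boxes each and the Btc window held 0, where 32.7% of the 32851 windows of the same length held at least 1. G and C made up 72.0% of the Wnt9b window, 77.6% of the Nbl1 window and 59.6% of the Btc window, against a median of 52.4% over all windows. The TATA box motif TATAAA, searched on both strands like the next motifs, matched in 0 of the 3 windows and in 12.4% of all windows. The WNT response core CTTTGA matched in 0 of the 3 and in 13.8% of all. The core TGGAAA, read by NFAT factors, matched in 0 of the 3 and in 18.6% of all. A match is a run of letters and not a shown binding site.

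The share of the UMIs of a gene that lies in a class depends on the size of the class as well as on the level in it. Of 1682 Sfrp1 UMIs, 58.8% lay in distal convoluted tubule-like cells. Of 1196 Sostdc1 UMIs, 41.8% lay in thick ascending limb-like cells. Wnt9b was the most concentrated by this measure, with 97.6% of 127 UMIs in principal cell-like cells. Btc had 55.1% of 196 UMIs and Nbl1 had 38.4% of 125 UMIs in the same class. Mdk had 90.4% of 1730 UMIs in proximal tubule-like cells, the most numerous class. This class was 10.1% of inner medulla cells and 62.4% to 79.4% of cells in the other libraries, so its share is high for an evenly spread gene too. Wnt5a and Fst were close to the limit of the data, with 41 and 11 UMIs over all libraries. These classes were drawn from genes that vary with the 8 genes, so differences between classes are described and not tested.

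**Figure D1:**
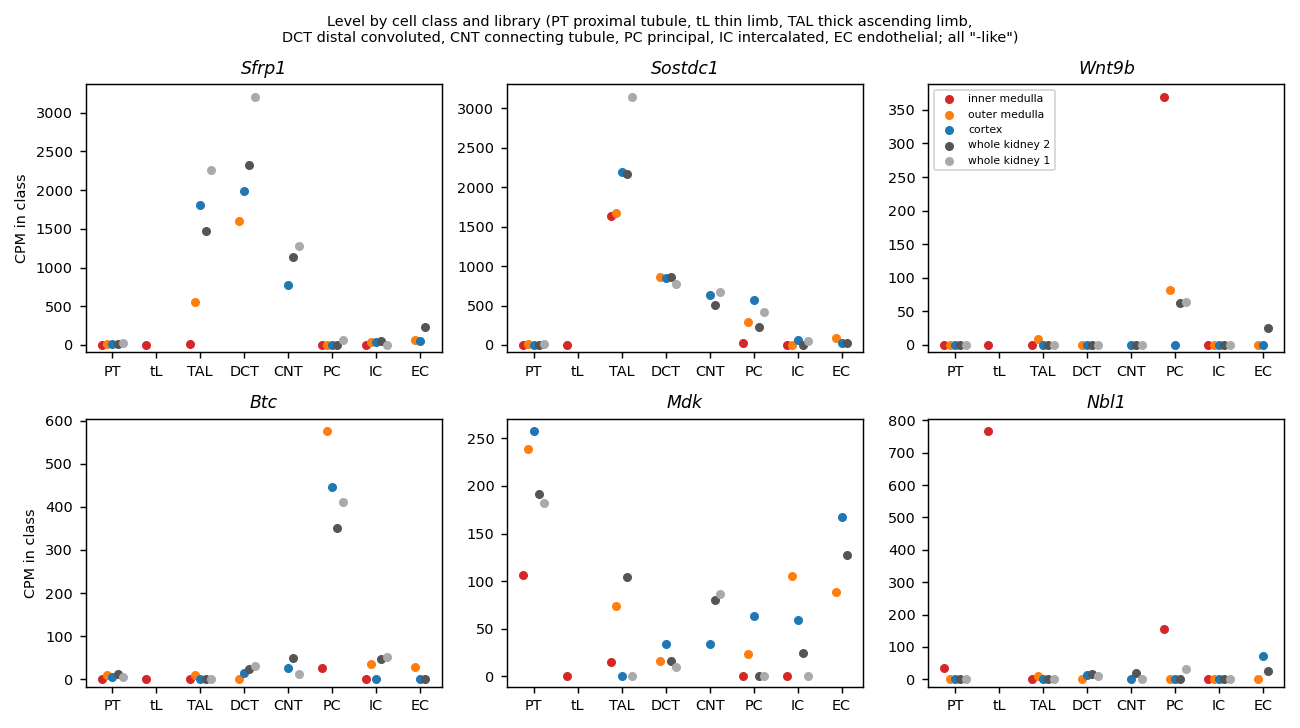
Level of 6 of the genes (y axis, counts per 1000000 UMIs of the class, CPM) in 8 cell classes (x axis), with 1 point per library that had at least 30 cells and 20000 UMIs of that class. Sfrp1 and Sostdc1 are high in thick ascending limb-, distal convoluted and connecting tubule-like cells, and the inner medulla point for Sfrp1 in the thick ascending limb is at 14.6 CPM.

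Among the antagonists, Sfrp1 was highest in distal convoluted tubule-like cells, where it averaged 2280.0 ± 684 CPM (SD, n = 4 libraries). Thick ascending limb-like cells had 1220.4 ± 919 CPM (n = 5) and connecting tubule-like cells 1066 ± 258 CPM (n = 3). The distal convoluted level was above the thick ascending limb level in 4 of 4 libraries and above the connecting tubule level in 3 of 3, although the ranges of the classes overlapped. Endothelial-like cells came next at 112 ± 102 CPM (n = 3), and that cluster also held the mural genes Rgs5 and Acta2 among its leading genes. Intercalated cell-, principal cell- and proximal tubule-like cells averaged 24.5 CPM or less. Barcodes with under 100 genes, used as a measure of free RNA, held 18.6 CPM of Sfrp1 in inner medulla and 230.5 to 375 CPM in the other libraries. The endothelial levels were 47.8 CPM in cortex, 58.8 CPM in outer medulla and 229 CPM in whole kidney 2. They were under those of free RNA in the same libraries, 369.5, 230.5 and 267.5 CPM, and are read as background.

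Sostdc1 was highest in thick ascending limb-like cells, ahead of distal convoluted tubule-like cells. Connecting tubule-like cells were below both classes for each gene in the 3 libraries where they were compared. In outer medulla they had 36 cells and 19969 UMIs, just under the minimum. There they held 31 Sfrp1 UMIs, a higher level than in thick ascending limb-like cells of that library (60 of 107960 UMIs). Sostdc1 averaged 2164 ± 607 CPM in thick ascending limb-like cells (n = 5), 836 ± 39.5 CPM in distal convoluted tubule-like cells (n = 4), 603 ± 88.0 CPM in connecting tubule-like cells (n = 3) and 305 ± 207 CPM in principal cell-like cells (n = 5). Thick ascending limb exceeded distal convoluted tubule in 4 of 4 libraries, and distal convoluted exceeded connecting tubule in 3 of 3, with no overlap between the ranges of these 3 classes. Both antagonists were found in the same cells at times. In distal convoluted tubule-like cells 145 of 682 cells held UMIs of both, 241 held Sfrp1 without Sostdc1 and 83 held Sostdc1 without Sfrp1. In thick ascending limb-like cells 54 of 544 held both, 39 held Sfrp1 without Sostdc1 and 209 held Sostdc1 without Sfrp1.

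Nbl1 was highest in thin limb-like cells, where only inner medulla had enough cells. There 28 of 133 cells held 40 UMIs of Nbl1, a level of 766 CPM. In outer medulla 1 of 27 thin limb-like cells held it. Principal cell-like cells averaged 37.3 ± 67.2 CPM (n = 5), and endothelial-like cells 32.4 ± 36.3 CPM (n = 3). Fst had 11 UMIs in 9 cells. Of these, 6 UMIs lay in 4 of the 27 thin limb-like cells of outer medulla, while 0 of 133 thin limb-like cells of inner medulla held Fst. A count of 0 allows up to 57.5 CPM there (3 counts of the class total). The outer medulla level, 530 CPM with an exact Poisson interval of 194 to 1153 CPM, rests on fewer cells than the minimum of 30 and is not compared. Fst was not listed as a row in cortex and whole kidney 1, nor Wnt9b in cortex, and these were read as 0.

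Among the ligands, Wnt9b was found in principal cell-like cells at 115 ± 145 CPM (n = 5) and at 8.49 CPM or less in every other class. In thick ascending limb-, proximal tubule- and endothelial-like cells this was 1 UMI in 1 library each. Btc averaged 362 ± 205 CPM in principal cell-like cells (n = 5) and 29.5 ± 19.2 CPM in connecting tubule-like cells (n = 3), with the principal cell level higher in 3 of 3 libraries. Wnt5a had its highest level, 95.8 CPM, in inner medulla thin limb-like cells, from 5 UMIs in 3 of 133 cells. Every other class averaged 18.5 CPM or less, and the proximal tubule-like class, which held 61.0% of the UMIs, averaged 3.08 CPM.

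Mdk averaged 195 ± 58.9 CPM in proximal tubule-like cells (n = 5) and 128 ± 39.5 CPM in endothelial-like cells (n = 3). It was above the endothelial level in 3 of 3 libraries, while the ranges overlapped. The endothelial levels, 88.2 CPM in outer medulla, 167 CPM in cortex and 127 CPM in whole kidney 2, were under those of free RNA in the same libraries, 157, 217 and 144 CPM, and are read as background. Within the proximal tubule-like class Mdk varied by cluster. Cluster 0, led by Car3, Slc34a3 and Gatm, averaged 426 ± 108 CPM, and cluster 3, whose leading genes include the early-segment transporters Slc5a12 and Slc5a2, averaged 355 ± 49.5 CPM (n = 4 libraries each). Clusters 1 and 4, whose leading genes include the late-segment transporter Slc7a13, averaged 37.0 ± 21.7 CPM (n = 5) and 55.9 ± 15.6 CPM (n = 4). The range of cluster 0, 334 to 544 CPM, did not overlap that of cluster 1, 0 to 56.9 CPM, or that of cluster 4, 42.8 to 78.6 CPM. Cluster 2 had 213 ± 42.2 CPM and cluster 13 had 320 ± 158 CPM (n = 4 each). A cluster left unnamed, led by the antigen-presentation genes H2-Aa and Cd74, had 272 ± 69.4 CPM of Mdk (n = 4).

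**Figure D2:**
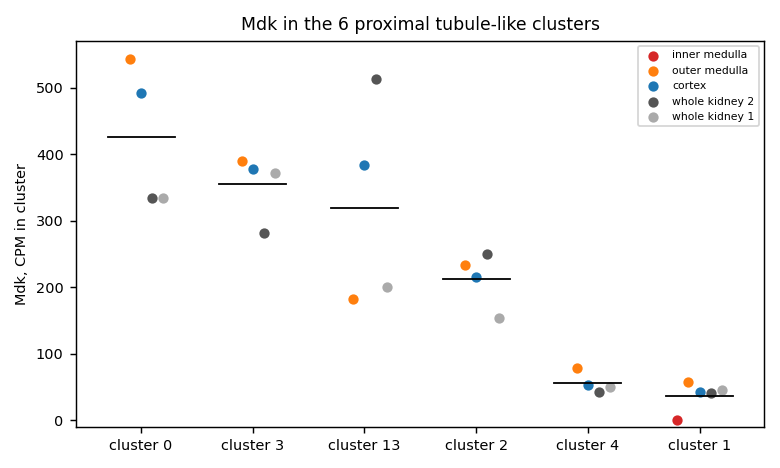
Mdk level (y axis, CPM) in the 6 proximal tubule-like clusters (x axis), with 1 point per library and a line at the mean of the libraries shown. Clusters 0, 3, 13 and 2 lie above 150 CPM in every library shown, and clusters 4 and 1 lie below 80 CPM.

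Over all cells of a library, the regions differed most in Wnt9b, Nbl1, Sfrp1 and Mdk. In such sums fewer cells of a type and less RNA per cell cannot be told apart. A gene was called higher or lower when the ratio of CPM passed 2-fold, with at least 20 UMIs over both libraries. For a count of 0 the floor of 3 counts was used. Such a ratio is written "at least", which leaves out the counting error of the other library. In inner medulla over cortex 6 of the 8 genes had enough UMIs, and 2 were higher and 2 lower. Among all 9307 genes compared, 29.7% were higher and 13.3% lower, so these counts of members are read against a large background. With TMM factors, a scaling that takes most genes as equal, the same 2 and 2 genes passed, and 13.9% of all genes were higher and 23.9% lower.

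Wnt9b had 112 UMIs (215 CPM) in inner medulla, 8 (4.57 CPM) in outer medulla, 0 in cortex, 4 (1.39 CPM) in whole kidney 2 and 3 (1.64 CPM) in whole kidney 1. Inner medulla stood above every other library, at least 183-fold higher than cortex (95% interval from 147) and 47.1-fold higher than outer medulla (23.1 to 112). Nbl1 had 91 UMIs (175 CPM) in inner medulla, 6 (3.43 CPM) in outer medulla, 8 (3.13 CPM) in cortex, 14 (4.85 CPM) in whole kidney 2 and 6 (3.27 CPM) in whole kidney 1. It was 55.9-fold higher in inner medulla than in cortex (27.2 to 133) and 51.0-fold higher than in outer medulla (22.6 to 143). Free RNA moved with this result: inner medulla barcodes with under 100 genes held 161 CPM of Nbl1 and 61.9 CPM of Wnt9b, and cortex ones held 2.24 and 0 CPM. With free RNA subtracted, both genes still passed 2-fold over cortex and over outer medulla.

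Sfrp1 had 6 UMIs (11.5 CPM) in inner medulla, 202 (115 CPM) in outer medulla, 467 (182.5 CPM) in cortex, 496 (172 CPM) in whole kidney 2 and 511 (279 CPM) in whole kidney 1. It was 15.8-fold lower in inner medulla than in cortex (7.22 to 43.4) and 10.0-fold lower than in outer medulla (4.52 to 27.6). Mdk had 7 UMIs (13.4 CPM) in inner medulla, 355 (203 CPM) in outer medulla, 578 (226 CPM) in cortex, 498 (173 CPM) in whole kidney 2 and 292 (159 CPM) in whole kidney 1. It was 16.8-fold lower in inner medulla than in cortex (8.10 to 42.0) and 15.1-fold lower than in outer medulla (7.24 to 37.8). Inner medulla had 4 distal convoluted, 1 connecting tubule- and 91 proximal tubule-like cells. Thick ascending limb-like cells, the class with the next highest mean Sfrp1 level after the distal convoluted tubule, were 12.1% of inner medulla, 10.3% of outer medulla and 2.25% of cortex cells. Free RNA moved with the Mdk levels, at 12.4 CPM in inner medulla barcodes with under 100 genes, 157 CPM in outer medulla and 217 CPM in cortex ones. With free RNA subtracted, the Mdk log2 ratio was -4.02 for inner medulla over cortex and -3.92 for inner medulla over outer medulla.

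Sostdc1 had 119 UMIs (229 CPM) in inner medulla, 287 (164 CPM) in outer medulla, 309 (121 CPM) in cortex, 247 (85.6 CPM) in whole kidney 2 and 234 (128 CPM) in whole kidney 1. It passed 2-fold in no pair of regions. In cells with at least 500 genes inner medulla did pass, with log2 ratios of 1.13 over cortex and 1.38 over outer medulla. Its log2 ratio of inner medulla over cortex was 0.92, and 0.29 with TMM factors. Its log2 ratio of inner medulla over outer medulla was 0.48, and -0.10 with TMM factors, so no direction is given for that pair. TMM lowered all inner medulla ratios by 0.63 (over cortex) or 0.58 (over outer medulla) on the log2 scale. The median log2 ratio over all genes was 0.45 for inner medulla over cortex.

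Btc had 8 UMIs (15.4 CPM) in inner medulla, 66 (37.7 CPM) in outer medulla, 38 (14.9 CPM) in cortex, 55 (19.1 CPM) in whole kidney 2 and 29 (15.8 CPM) in whole kidney 1. Outer medulla was above the other libraries. In outer medulla over cortex 5 genes were compared, with Btc and Wnt5a higher and 0 lower, against 2.53% and 2.25% of all 9571 genes. Btc was 2.54-fold higher (1.68 to 3.89). Wnt5a rested on 12 UMIs in outer medulla and 8 in cortex, and its 2.19-fold ratio had an interval of 0.824 to 6.18 that includes 1.

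In inner medulla over outer medulla 7 genes were compared. Wnt5a, Wnt9b and Nbl1 were higher and Sfrp1, Btc and Mdk lower, where 28.1% of all 8590 genes were higher and 13.0% lower. With TMM factors Wnt5a no longer passed, and 14.1% of all genes were higher and 22.2% lower. Btc was 2.45-fold lower there (1.18 to 5.92). The Wnt5a ratio of 2.24 had an interval of 0.795 to 5.97, which includes 1. Both whole kidney libraries gave a view of the spread between libraries of a kind. Of 5 genes compared, 0 passed 2-fold in whole kidney 2 over whole kidney 1, where 1.49% of all genes were higher and 2.82% lower. Sfrp1 was 1.62-fold lower (1.43 to 1.84) and Sostdc1 1.49-fold lower (1.24 to 1.79) in whole kidney 2, so these levels differed between libraries of a kind beyond counting error.

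**Figure D3:**
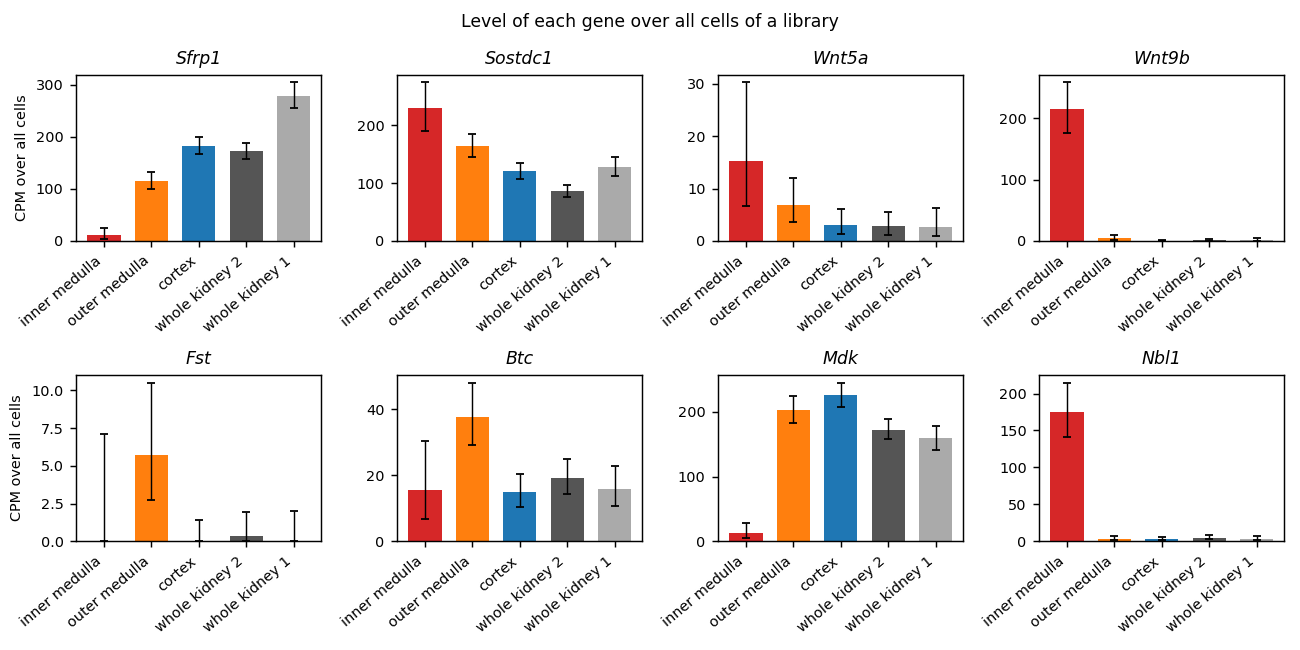
Level of each of the 8 genes over all cells (y axis, CPM, a scale of its own in each panel) in the 5 libraries (x axis), with bars for the level and whiskers for exact 95% Poisson intervals. Wnt9b and Nbl1 stand out in inner medulla, at 215 and 175 CPM, where Sfrp1 and Mdk are at 11.5 and 13.4 CPM.

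Within thick ascending limb-like cells, Sfrp1 was lowest in the inner medulla library, while Sostdc1 stayed within 2-fold. A library names the dissected region and not the place of a cell. Carry-over of outer medulla cells into the inner medulla library was not tested for this class. This class had 109 inner medulla, 249 outer medulla, 69 cortex, 63 whole kidney 2 and 54 whole kidney 1 cells. Sfrp1 had 1 UMI (14.6 CPM) in inner medulla, 60 (556 CPM) in outer medulla, 61 (1805 CPM) in cortex, 42 (1468 CPM) in whole kidney 2 and 51 (2259 CPM) in whole kidney 1. Inner medulla was far below the other libraries and outer medulla was between. The level was 123-fold lower in inner medulla than in cortex (21.3 to 4948), 3.25-fold lower in outer medulla than in cortex (2.24 to 4.72) and 38.0-fold lower in inner medulla than in outer medulla (6.56 to 1524). Of all genes compared in this class, 8.09% were lower and 13.7% higher in inner medulla than in cortex. In outer medulla over cortex 4.59% were lower and 9.47% higher, and in inner medulla over outer medulla 11.3% were lower and 7.56% higher.

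Sostdc1 in the same cells had 112 UMIs (1640.2 CPM) in inner medulla, 181 (1677 CPM) in outer medulla, 74 (2190 CPM) in cortex, 62 (2167 CPM) in whole kidney 2 and 71 (3144 CPM) in whole kidney 1. The inner medulla over cortex ratio was 0.749 (0.553 to 1.02), which includes 1. The sign of that ratio turned when each cell was classed by its highest marker score, with a log2 ratio of 0.68 in place of -0.42. Set against Sostdc1 in the same cells, which removes the scale of the library, Sfrp1 had 0.00893 UMIs per Sostdc1 UMI in inner medulla (0.000224 to 0.0508), 0.332 in outer medulla (0.243 to 0.446), 0.824 in cortex (0.578 to 1.17), 0.677 in whole kidney 2 (0.447 to 1.02) and 0.718 in whole kidney 1 (0.491 to 1.04). The intervals of the 3 regions did not overlap. Free RNA had the same order, with 0.0462 Sfrp1 UMIs per Sostdc1 UMI in inner medulla (0.00928 to 0.141), 0.617 in outer medulla (0.478 to 0.793) and 2.62 in cortex (1.95 to 3.56). Free RNA was estimated at 5.68% of the UMIs of this class in inner medulla, 31.5% in outer medulla and 24.6% in cortex. With it subtracted, the Sfrp1 log2 ratio was -7.26 for inner medulla over cortex and -1.67 for outer medulla over cortex. In distal convoluted tubule-like cells the same ratio was 1.85 in outer medulla (1.30 to 2.64) and 2.36 in cortex (1.90 to 2.94), with overlapping intervals.

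Shares of cells gave the same order. With every cell thinned to 300 UMIs, Sfrp1 was found in 1.25% of 80 inner medulla, 9.04% of 166 outer medulla, 29.4% of 51 cortex, 20.4% of 54 whole kidney 2 and 29.5% of 44 whole kidney 1 thick ascending limb-like cells. Unthinned shares were 0.917%, 11.2%, 46.4%, 27.0% and 27.8% of cells in the same order. Median depth of these cells was 348 UMIs in inner medulla, 351 in outer medulla and 383 in cortex. In proximal tubule-like cells, which should lack the gene, the thinned share was 0% (inner medulla) to 1.19% (whole kidney 1), at median depths of 445 to 538 UMIs. In inner medulla this was 1 of 80 thick ascending limb-like cells against 0 of 80 proximal tubule-like cells, too few to tell from background. Sostdc1 was found in 42.5%, 31.9%, 39.2%, 42.6% and 59.1% of the thinned cells.

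Markers of other classes moved with Sfrp1. The 7 connecting tubule markers summed to 879 CPM in the inner medulla cells of this class, with 4 of the 7 at 0, to 3057 CPM in outer medulla (1 at 0) and to 8641 CPM in cortex (2 at 0). The 8 distal convoluted tubule markers summed to 73.2 CPM (5 at 0), 324 CPM (2 at 0) and 1006 CPM (3 at 0). The defining distal convoluted gene Slc12a3, the thiazide-sensitive sodium chloride cotransporter, had 0 UMIs in inner medulla, 6 in outer medulla and 0 in cortex, and 0 of the 93 cells with Sfrp1 held it. Pvalb, another distal convoluted marker, had 5 UMIs in cortex, and 1 of the cells with Sfrp1 held it. Cells that held a UMI of Slc12a3, Pvalb, Calb1 or S100g were then left out, a choice made after seeing the data. This left 109 inner medulla, 231 outer medulla and 52 cortex cells. Sfrp1 was 114-fold lower in inner medulla than in cortex (19.4 to 4625) and 2.96-fold lower in outer medulla than in cortex (1.93 to 4.51). At this depth a cell with distal RNA can lack a UMI of these genes, so such cells may remain. The thick ascending limb gene Egf had the same order, with 688 CPM in inner medulla, 2899 CPM in outer medulla and 6747 CPM in cortex, 9.80-fold lower in inner medulla than in cortex (7.13 to 13.7). The limb marker Cldn16 had 29.3 CPM (2 UMIs) in inner medulla, 306 CPM in outer medulla and 444 CPM in cortex. Cldn10, another limb marker, went the other way, with 3749, 2816 and 1272.5 CPM. Limb cells of the 3 regions thus differed in their own markers, and the part of this in the Sfrp1 result was not tested.

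**Figure D4:**
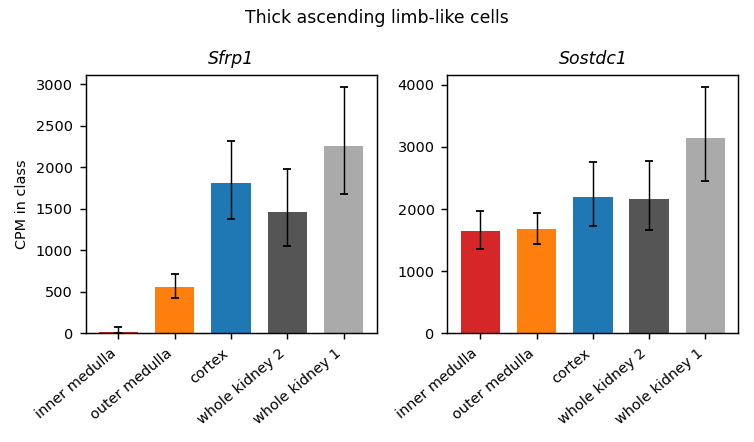
Sfrp1 and Sostdc1 (y axis, CPM in the class) in thick ascending limb-like cells of the 5 libraries (x axis), with bars for the level and whiskers for exact 95% Poisson intervals. Sfrp1 is at 14.6 CPM in inner medulla and 1805 CPM in cortex, and Sostdc1 lies between 1640.2 and 3144 CPM in all 5 libraries.

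In distal convoluted tubule-like cells neither gene passed 2-fold in outer medulla over cortex, where 3.76% of all genes compared were higher and 5.8% lower. Sfrp1 had 96 UMIs (1598 CPM) in outer medulla against 290 (1993 CPM) in cortex, a ratio of 0.802 (0.630 to 1.01). Sostdc1 had 52 UMIs (866 CPM) in outer medulla against 123 (845 CPM) in cortex, a ratio of 1.02 (0.726 to 1.43). Whole kidney 2 and whole kidney 1 gave 2324 and 3205 CPM of Sfrp1, and 856 and 778 CPM of Sostdc1, so the whole kidney libraries differed from each other more than outer medulla did from cortex.

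Principal cell-like cells had more Wnt9b and Nbl1 and less Btc and Sostdc1 in inner medulla than in outer medulla or cortex. The class had 478 inner medulla, 173 outer medulla, 64 cortex, 70 whole kidney 2 and 61 whole kidney 1 cells. Of the inner medulla cells, 418 formed a cluster of their own, led by Aqp4 and Plet1, and 60 fell in the cluster that held all cortex and outer medulla cells. In inner medulla over cortex 4 of the 8 genes had enough UMIs, and 2 were higher and 2 lower, where 24.0% of all 3598 genes compared were higher and 10.7% lower. In inner medulla over outer medulla the same 4 genes passed in the same directions, against 19.9% and 9.62% of 3879 genes. These comparisons share the inner medulla cells. In outer medulla over cortex 2 genes were compared and 0 passed, against 8.28% and 5.45% of 1377 genes.

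Wnt9b had 112 UMIs (369.5 CPM) in inner medulla principal cell-like cells, 7 (82.2 CPM) in outer medulla, 0 in cortex, 3 (61.9 CPM) in whole kidney 2 and 2 (63.3 CPM) in whole kidney 1. It was at least 5.80-fold higher in inner medulla than in cortex (interval from 4.64) and 4.50-fold higher than in outer medulla (2.11 to 11.4). A count of 0 in cortex allows up to 63.7 CPM. Nbl1 had 47 UMIs (155 CPM) in inner medulla, 0 in outer medulla, 0 in cortex, 0 in whole kidney 2 and 1 (31.7 CPM) in whole kidney 1. It was at least 2.43-fold higher than in cortex (interval from 1.90, which is under 2-fold) and at least 4.40-fold higher than in outer medulla (from 3.44). In inner medulla barcodes with under 100 genes Nbl1 was at 161 CPM, level with these cells. Thick ascending limb-like cells of the same library had 0 Nbl1 UMIs, which allows up to 43.9 CPM.

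Btc had 8 UMIs (26.4 CPM) in inner medulla, 49 (575 CPM) in outer medulla, 21 (446 CPM) in cortex, 17 (351 CPM) in whole kidney 2 and 13 (412 CPM) in whole kidney 1. Inner medulla was the only library under 300 CPM. The level was 16.9-fold lower in inner medulla than in cortex (7.19 to 44.1) and 21.8-fold lower than in outer medulla (10.2 to 53.3). Sostdc1 had 6 UMIs (19.8 CPM) in inner medulla, 25 (294 CPM) in outer medulla, 27 (573 CPM) in cortex, 11 (227 CPM) in whole kidney 2 and 13 (412 CPM) in whole kidney 1. It was 29.0-fold lower in inner medulla than in cortex (11.7 to 85.8) and 14.8-fold lower than in outer medulla (5.94 to 44.2). Free RNA of Sostdc1 was highest in inner medulla, at 402 CPM against 374 CPM in outer medulla and 141 CPM in cortex, the reverse of its order in these cells.

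Wnt9b and Btc were each detected in few principal cell-like cells. Both were found in 4 of 846 cells, Wnt9b without Btc in 95 and Btc without Wnt9b in 68. At this depth these counts do not show whether the genes are in the same or in different cells. Of the 88 inner medulla cells with Wnt9b, 1 held Btc. Wnt9b and Nbl1 were both found in 8 of the 478 inner medulla cells, with 80 holding Wnt9b without Nbl1 and 27 holding Nbl1 without Wnt9b. Thinned to 300 UMIs, 11.2% of 409 inner medulla cells, 3.08% of 130 outer medulla cells and 0 of 54 cortex cells held Wnt9b, which allows a share of up to 5.56% of cortex cells with a Wnt9b UMI at this depth (3 counts of the 54 cells). Unthinned shares were 18.4%, 3.47% and 0%, at median depths of 510, 386 and 500 UMIs. Thinned shares with Btc were 0.978%, 10.0% and 9.26%. In proximal tubule-like cells thinned shares of Wnt9b were at most 0.0627% and those of Btc at most 0.339%.

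In the cluster found in all libraries, with 60 inner medulla and 64 cortex cells, the counts were small. This restriction was chosen after seeing the data. Wnt9b had 5 UMIs in inner medulla against 0 in cortex, at least 3.14-fold higher (interval from 1.73). Btc had 3 UMIs (120 CPM) in inner medulla against 21 (446 CPM) in cortex, 3.72-fold lower (1.11 to 19.5). Sostdc1 had 1 UMI in inner medulla against 27 in cortex, 14.3-fold lower (2.36 to 587). Nbl1 had 3 UMIs in inner medulla against 0 in cortex, a level of 120 CPM against a limit of 63.7 CPM, and no longer passed 2-fold. Over the outer medulla cells of this cluster, inner medulla Wnt9b was 2.44-fold higher with an interval of 0.609 to 8.91 that includes 1, Btc was 4.79-fold lower (1.55 to 24.0) and Sostdc1 7.34-fold lower (1.20 to 301). Markers of other classes moved with the regions. The 7 connecting tubule markers summed to 277 CPM in inner medulla (3 at 0), 1104 CPM in outer medulla (1 at 0) and 7390 CPM in cortex (1 at 0) principal cell-like cells. Calb1, which marks the connecting tubule, had 6.60 CPM in inner medulla, 411 CPM in outer medulla and 1359 CPM in cortex, and its part in the Btc and Sostdc1 results was not tested.

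**Figure D5:**
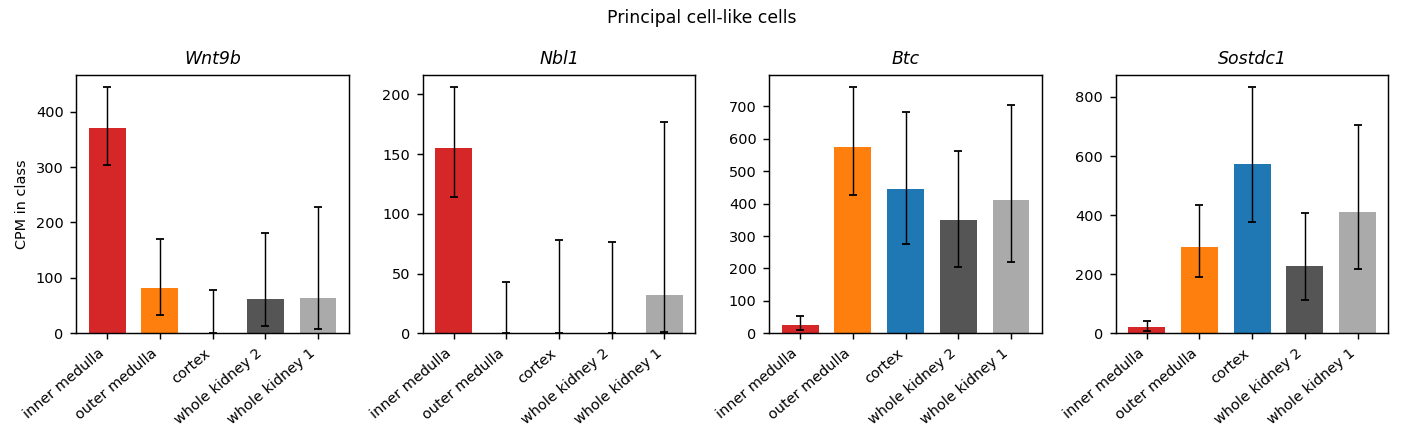
Wnt9b, Nbl1, Btc and Sostdc1 (y axis, CPM in the class, a scale of its own in each panel) in principal cell-like cells of the 5 libraries (x axis), with bars for the level and whiskers for exact 95% Poisson intervals. Inner medulla is highest for Wnt9b (369.5 CPM) and Nbl1 (155 CPM) and lowest for Btc (26.4 CPM) and Sostdc1 (19.8 CPM).

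In proximal tubule-like cells Mdk had 6 UMIs (106 CPM) in inner medulla, 302 (239 CPM) in outer medulla, 514 (258 CPM) in cortex, 469 (192 CPM) in whole kidney 2 and 273 (182 CPM) in whole kidney 1. It was 2.42-fold lower in inner medulla than in cortex (1.10 to 6.62) and 2.25-fold lower than in outer medulla (1.02 to 6.17), where 6.28% and 7.52% of all genes compared were lower and 29.3% and 20.2% higher. With free RNA subtracted, the log2 ratio was -1.26 for inner medulla over cortex and -1.20 for inner medulla over outer medulla. The inner medulla cells of this class lay mostly in the clusters with little Mdk. Of the 91 cells, 41 were in cluster 1, with 0 Mdk UMIs, and 7 were in cluster 3, with 4 of the 6 Mdk UMIs. Carry-over of outer medulla cells was not tested here either. Outer medulla and cortex differed little, with a ratio of 0.928 (0.803 to 1.07). Sostdc1 passed 2-fold in these cells in outer medulla over cortex, with 15 UMIs (11.9 CPM) in outer medulla against 7 (3.51 CPM) in cortex, where 1.56% of genes were higher and 3.05% lower. Both levels were under those of free RNA, 374 CPM in outer medulla and 141 CPM in cortex.

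For each gene the 3 genes most like it were taken by Pearson correlation of log2(CPM + 10) over 31 class-by-library sums, which share libraries and depth, and these are descriptions only. Sfrp1 was closest to Scn4b (r = 0.90), Aebp1 (0.89) and Cwh43 (0.88). Sostdc1 was closest to Tfap2b (0.93), a transcription factor of the distal nephron, then to Bag1 (0.90) and Kcnj1 (0.89), the potassium channel ROMK. Wnt9b was closest to the principal cell genes Elf5 (0.84) and Aqp4 (0.82) and to the prostaglandin receptor Ptger1 (0.82). Btc was closest to Spock3 (0.85) and the sodium channel subunit Scnn1b (0.85). Mdk was closest to Ak4 (0.82), Agxt2 (0.82) and Igfbp4 (0.80), and Nbl1 to Rtn1 (0.82), Bcat1 (0.80) and Upk3b (0.79). Wnt5a reached 0.72 with Spon1, 0.71 with Angpt2 and 0.70 with Bst1. Fst reached at most 0.60, with Lcn2, and rested on levels up to 11.7 CPM.

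Other genes of these pathways were counted from 11 lists, over all cells of inner medulla and cortex. Of 42 genes compared, 19 were at least 2-fold higher in inner medulla and 6 lower, where 29.7% of all genes were higher and 13.3% lower. With TMM factors, chosen for the lists after seeing the data, 8 were higher and 11 lower. Of all genes, 13.9% were higher and 23.9% lower with these factors. The 11 lower genes were Fzd5, Fzd7, Lgr4, Sp5, Ccnd1, Bmp4, Bmp6, Bmp7, Id2, Smad7 and Egf. The 8 higher genes were Wnt4, Wnt7b, Rnf43, Bmpr1a, Bmpr1b, Twsg1, Id4 and Smad6. The other genes given as higher over all cells in the lists below thus passed only with scaling to total UMIs. Of 17 other WNT ligands, 2 had enough UMIs in inner medulla and cortex and both were higher in inner medulla, against a median log2 ratio over all genes of 0.45. Wnt4, a ligand known for its role in nephron formation, had 202 UMIs in inner medulla against 1 in cortex, and 198 of the inner medulla UMIs were in principal cell-like cells. Wnt7b, a collecting duct ligand known for its role in forming the medulla in mice, had 75 UMIs in inner medulla against 0 in cortex, at least 123-fold higher. Its highest class level was 249 CPM, in thin limb-like cells of inner medulla, the 1 library with enough of them. Principal cell-like cells had a mean of 47.0 CPM over 5 libraries, so these levels do not cover the same libraries. Most of the inner medulla Wnt7b UMIs lay in principal cell-like cells. Of 18 WNT receptors 8 were compared, with 3 higher (Fzd4, Fzd6 and Ryk), 1 lower (Fzd7, 2 UMIs against 25) and a median of 0.32, which was -0.30 with TMM factors. Of 11 other secreted WNT antagonists 3 were compared and Frzb was higher, 2.46-fold (1.03 to 5.50). Of 11 WNT targets 4 were compared, with Rnf43 7.37-fold higher (2.77 to 20.8), Ccnd1 3.51-fold lower and Sp5 3.13-fold lower, and a median of -0.50.

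Of 8 BMP and activin receptors 5 were compared and 3 were higher in inner medulla than in cortex, with a median log2 ratio of 1.58, and 0.95 with TMM factors. Bmpr1b was 21.9-fold higher (11.9 to 43.6) and Bmpr1a 3.93-fold higher (2.87 to 5.37). Of 11 other BMP and activin antagonists 3 were compared. Twsg1 was 7.17-fold higher (5.29 to 9.77), and Dand5 (2.46-fold) and Fstl3 (2.27-fold) were higher only without TMM factors. Of 12 BMP and activin ligands 3 were compared, with Bmp4 and Bmp6 lower. Of 7 BMP targets 6 were compared, with Id4 14.2-fold higher (9.50 to 21.6), Smad6 7.02-fold higher (20 UMIs against 14) and Id2 3.24-fold lower. Of 8 other EGF family ligands 2 were compared and Hbegf was 2.80-fold higher (1.90 to 4.09), and of 4 ERBB receptors 3 were compared, with Egfr and Erbb4 higher. Of 8 midkine relatives and receptors 3 were compared, and Sdc1 was higher on 7 UMIs against 14.

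Within principal cell-like cells fewer list genes had enough UMIs, and 24.0% of all genes compared were higher in inner medulla than in cortex and 10.7% lower. Wnt4 had 198 UMIs (653 CPM) in inner medulla against 1 (21.2 CPM) in cortex, a ratio of 30.8 (5.46 to 1221). Wnt7b was at least 2.95-fold higher in inner medulla, with 57 UMIs against 0. Twsg1 did not pass 2-fold there, at a ratio of 1.44 (0.662 to 3.73), nor did Bmpr1b, at 1.98 (0.728 to 7.55), and the Bmpr1a ratio of 2.95 had an interval of 0.960 to 14.7 that includes 1. Ccnd1 was 29.8-fold lower in inner medulla, with 8 UMIs (26.4 CPM) against 37 (786 CPM) in cortex. Of 3 BMP targets compared, Id4 was at least 4.09-fold higher, with 79 UMIs in inner medulla against 0 in cortex, Id2 was 9.49-fold lower and Id3, which passed in neither direction over all cells, was 2.15-fold lower. Hbegf, an EGF receptor ligand like Btc, had 29 UMIs in inner medulla against 1 in cortex, a ratio of 4.50 whose interval, 0.747 to 184, includes 1.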

How the data were processed

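The deposited files are tables of UMI counts per gene and barcode, 1 per library, and the authors' counts were used as deposited. Per the submitters' processing notes, the build is mm9 and Seurat 2.3.1 was named, with no role given; the aligner is not given in the sources used here. All barcodes with at least 200 genes were kept. Scrublet (scanpy 1.11.5) marked 0.198% of cells as doublets and was not taken as having worked, so none were removed. Leiden clusters (leidenalg 0.10.2, resolution 1) used 2000 variable genes and 30 principal components, without the 8 genes and the pathway lists. Clusters were named from marker lists. Counts were summed per class and library (at least 30 cells and 20000 UMIs) and given as CPM with exact Poisson intervals of 95%, and ratios with exact conditional intervals. Levels by class are means ± SD over libraries. Named genes are the 8, list genes past 2-fold with at least 20 UMIs, and the 3 most alike genes among those with at least 100 CPM in a sum, of which 1 is not reported here. The ratio code was tested on simulated data. Library depth was 520663 to 2886013 UMIs in cells. TMM factors came from edgeR 4.0.16. The members and gene lists were chosen with earlier results of these data known. PCR and animal differences are not covered by the intervals.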

Additional observations from a re-analysis of the deposited data

How the results depend on the processing

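No paired analysis was possible because no result comes from a test and each region had 1 library. Class levels were scored by how many of the 8 genes had their highest mean in the class given in the report, with Fst not counted (7 in the main analysis). This was 4 with at least 500 genes per cell, where no thin limb-like cells and only 11 inner medulla thick ascending limb-like cells remained, and 4 at resolution 0.5, which gave no distal convoluted or thin limb-like class. Leaving out each library in turn gave 5 to 7, the 5 without inner medulla. For outer medulla over cortex the count of 2 became 1 without the top 5% of doublet scores, 1 with free RNA subtracted, 1 with at least 50 UMIs, 4 with at least 1 UMI and 0 with 10 CPM added to each level. Btc was the gene kept at 1. For whole kidney 2 over whole kidney 1 the count of 0 became 1 (Fst) with at least 1 UMI. Within classes the count of 14 became 8 with at least 500 genes, 8 with at least 50 UMIs and 56 with at least 1 UMI. Wnt9b, Nbl1, Sfrp1 and Mdk passed 2-fold in inner medulla over cortex and over outer medulla under every alternative run over all cells. Wnt5a in inner medulla over outer medulla was lost under each of these except the minimum of 1 UMI, and Btc at 500 genes and with 10 CPM added. With at least 500 genes the Sostdc1 log2 ratio of outer medulla over cortex was -0.25, against 0.44. Of 322 values for single genes under alternatives other than the UMI minimums, 292 stayed within their interval or SD and 30 did not. The 322 include 7 values for each library left out, or 5 for inner medulla. Leaving out 1 library cannot move such a mean beyond its SD, so these values stayed by design. Among the 30 were 9 of 28 with classes from marker scores and 5 of 10 in the principal cell-like cluster found in all libraries. The cause was not tested. Limits: 1 library per region, so a region and its library cannot be told apart; Wnt5a and Fst rest on 41 and 11 UMIs.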
